A study of Homo sapiens with 20 samples.

Results

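CIITA and the 7 mRNAs that encode the DNA-bound factors it works with were followed across the U2OS RNA-seq libraries. The set was chosen by gene name: CIITA, RFX5, RFXAP, RFXANK, NFYA, NFYB, NFYC and CREB1, which are 8 of the 43366 genes counted. CIITA was the member that moved most. Its mRNA rose 25.2-fold with IFNγ in the WT clones, and the treated WT libraries lay 8.48-fold above the treated libraries labelled ZBTB48 KO, with no overlap between the libraries but an edgeR adjusted p of 0.0951. RFX5 rose 1.48-fold with IFNγ in the WT clones. All 7 factors, RFX5 included, changed by less than 1.5-fold with IFNγ in the WT and KO-labelled libraries alike. In KO-labelled libraries RFXAP changed 1.45-fold and RFX5 1.32-fold (edgeR adjusted p = 0.126 and 0.0412).

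MHC class II genes carry a conserved promoter module whose elements are bound by the RFX complex (RFX5, RFXAP and RFXANK), by a CREB-family protein and by the trimeric CCAAT-binding factor NF-Y (NFYA, NFYB and NFYC). This bound assembly, the MHC-II enhanceosome, is present in many cell types but is not sufficient for transcription. CIITA does not bind DNA itself. It docks on the enhanceosome and recruits the transcription machinery, and inherited loss of CIITA, RFX5, RFXAP or RFXANK causes the bare lymphocyte syndrome, in which MHC-II is missing. In cells outside the immune system CIITA is induced by IFNγ through JAK kinase signalling and IRF1, and its alternative promoters pI, pIII and pIV give transcripts with different first exons.

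U2OS is an osteosarcoma cell line. The 4 groups were untreated WT clones, untreated clones labelled ZBTB48 KO, and the same 5 WT and 5 KO-labelled clones after 24 h with 250 U/ml IFNγ. Every replicate is 1 clone of this line, grown in the same medium, and the labels tie a treated library to the untreated library of its clone. ZBTB48 is a zinc finger protein that binds telomeres and a set of promoters. Whole-gene counts were deposited, so CIITA is given as the sum over its alternative first exons, and an mRNA level in a bulk library does not separate fewer expressing cells from less mRNA per cell.

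Total counts ranged from 46652288 to 72952859 per library. ZBTB48 mRNA, the check of the labels, was at 8.03 to 11.6 CPM (counts scaled to the library size after TMM normalization) in the 10 WT libraries and at 1.29 to 5.27 CPM in 8 libraries labelled KO. The KO-labelled libraries of replicate 3 had 11.3 CPM untreated and 15.8 CPM treated, within or above the WT range. MTFP1, a gene that ZBTB48 activates, was at 27.2 to 53.1 CPM in the WT libraries and at 0.223 to 0.938 CPM in all 10 libraries labelled KO, replicate 3 included. The treated KO-labelled libraries of replicates 4 and 5 resembled the untreated library of the other number (Pearson's r of gene-wise deviations 0.84 and 0.76). They did not resemble that of their own number (-0.01 and 0.06). Folds and responses of single KO clones, and the figures, are as labelled unless the exchange of these numbers is named. Tests that pair KO clones are in part also given with these numbers exchanged. CIITA results are given with and without KO replicate 3. Among the osteoblast-lineage genes checked, COL1A1 (285 to 5703 CPM), SPARC (627 to 3361 CPM) and RUNX2 (18.4 to 92.0 CPM) were expressed in every library, while COL1A2 had a median of 0.135 CPM and TWIST1 passed 3 counts in 1 library. Of markers of cells that express MHC-II constitutively, the B cell list summed to 0.190 to 1.81 CPM per library, with CD79A at up to 1.1 CPM, PAX5 at up to 1.12 CPM and MS4A1 at up to 0.226 CPM. The macrophage and dendritic list summed to 4.81 to 19.2 CPM in untreated WT, 2.02 to 18.6 CPM in untreated KO-labelled, 6.5 to 26.1 CPM in treated WT and 2.75 to 19.2 CPM in treated KO-labelled libraries. Most of it was ITGAX (0.202 to 14.7 CPM) and CD68 (0.648 to 16.7 CPM), while CSF1R reached 1.99 CPM, PTPRC 0.950 CPM and CD14 0.265 CPM, and their part in the results was not tested.

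On GRCh38, CIITA spans chr16:10866206-10943021 on the plus strand. Its annotated exons merge into 26 blocks of 20597 bases, of which 1569 (7.62%) are shared with DEXI, a gene of the opposite strand. All 1569 exonic bases of DEXI are shared in this way, and DEXI had 0 counts in every library. So did all 187 genes with every exonic base shared with a gene of the opposite strand. The counts of CIITA therefore come from the 19028 bases that no exon of another gene covers. Of its exonic bases, 8707 lie inside the intron of DEXI (chr16:10929560-10941568). Whether reads of unspliced DEXI RNA were counted there was not tested. The first exon of the pI transcripts is a block of 367 bases at chr16:10866206-10866572, and that of the pIII transcripts a block of 185 bases at chr16:10877198-10877382, each holding the forward primer that the study designed for it. The study probed the pIII promoter with double-stranded oligos built from repeats of short stretches of this locus. The repeat units of 2 of them are shown here because they place G-rich stretches upstream of the pIII first exon, with runs of 3 or more G in capitals.
CIITA probe b.1: cttaaGGGagtgtgg
CIITA probe e: cttGGGGccaccttgcaGGGagagtttttt
The b.1 unit, present in 4 copies in the oligo, matches chr16:10877053-10877067 on the plus strand, and its last base lies 131 bases before the pIII first exon. The e unit, present in 2 copies, matches chr16:10877105-10877134, with its last base 64 bases before that exon.

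RefSeq promoter windows of 300 bases (250 before and 50 after an annotated start, GRCh38.p14) were found for 6 of the 8 members, 12 windows in all. CIITA and NFYB had no window. The windows were searched on both strands for the gamma-activated site (GAS, TTCNNNGAA), the interferon-stimulated response element (ISRE, GAAA, any 2 bases and GAAA), the NF-Y element (CCAAT), the CREB element (TGACGTCA), the E box (CACGTG) and the telomeric repeat (TTAGGG). Over all 35116 windows of the table, GAS stood in 7.66%, ISRE in 3.57%, CCAAT in 34.6%, the CREB element in 1.85%, the E box in 7.26% and TTAGGG in 9.05%. Among the members' 12 windows, 1 held GAS, 1 ISRE, 5 CCAAT, 0 the CREB element, 2 the E box and 1 TTAGGG. The 2 E box windows overlap and hold the same RFX5 site (chr1:151347066-151347071), and several of the CCAAT windows belong to NFYC. Windows of 1 gene are therefore not independent. RFX5 is shown because it is the factor that rose with IFNγ in the WT clones. The first line gives chr1:151347327-151347502 on the minus strand, upstream of the annotated gene start, with 2 CCAAT matches in capitals. The next gives chr1:151347187-151347216 on the minus strand, where the capitals are the reverse complement of an ISRE match on the plus strand.
RFX5 upstream: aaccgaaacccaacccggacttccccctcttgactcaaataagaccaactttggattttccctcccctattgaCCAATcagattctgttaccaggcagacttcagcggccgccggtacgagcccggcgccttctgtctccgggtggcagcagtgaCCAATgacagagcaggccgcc
RFX5 ISRE: tacgaggtagTTTCTCTTTCtcccttacct
NFYA is shown because its change with IFNγ pointed the other way in every clone. The line gives chr6:41072724-41072973 on the plus strand, the 250 bases before its annotated start, with the GAS match in capitals, 140 bases before the start.
NFYA upstream: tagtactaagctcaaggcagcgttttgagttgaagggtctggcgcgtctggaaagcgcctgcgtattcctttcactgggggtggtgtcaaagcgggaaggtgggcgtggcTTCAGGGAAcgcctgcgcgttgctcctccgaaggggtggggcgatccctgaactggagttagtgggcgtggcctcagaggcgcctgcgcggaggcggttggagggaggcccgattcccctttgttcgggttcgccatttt
These matches describe the letters of the windows. Binding at them was not measured here.

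CIITA was at the lowest level of the set in untreated cells. In the untreated WT clones it had 3.11, 4.25, 2.62, 2.12 and 3.82 CPM in replicates 1 to 5, which rests on 129 to 241 counts per library. The untreated libraries labelled KO had 1.31, 2.71, 1.94, 2.16 and 2.04 CPM, from 68 to 134 counts. The ranges overlapped, with means of 3.19 ± 0.867 CPM (SD, n = 5) and 2.03 ± 0.501 CPM (SD, n = 5). The log2 fold change of WT over KO label was 0.64 (SE 0.27, 95% CI 0.06 to 1.22, edgeR adjusted p = 0.980) and 0.62 without KO replicate 3. A two-sided exact permutation test on these libraries alone gave p = 0.0397.

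After IFNγ, CIITA stood at 107, 55.2, 38.2, 89.6 and 106 CPM in the WT clones, a mean of 79.3 ± 31.1 CPM (SD, n = 5). The treated libraries labelled KO had 3.05, 6.12, 11.1, 18.8 and 7.45 CPM, a mean of 9.31 ± 6.05 CPM (SD, n = 5). The lowest treated WT clone, replicate 3, lay above the highest treated KO-labelled library, replicate 4, and the coefficient of variation between clones rose from 27.2% to 39.3% in WT and from 24.6% to 65.0% in KO-labelled clones. Treated WT against treated KO-labelled libraries gave a log2 fold change of 3.08 (SE 0.47), an 8.48-fold difference with a 95% CI of 4.14 to 17.4. The exact permutation test on CIITA alone gave p = 0.00794, the smallest that 5 against 5 libraries allow. Adjusted over the 19383 genes tested, edgeR's p was 0.0951, which did not pass the threshold of 0.01. Alternatives moved the adjusted p from 2.21e-09 with DESeq2 and 0.00106 with all 20 libraries in one edgeR fit to 0.695. Without KO replicate 3 the log2 fold change was 3.16 (SE 0.54, edgeR adjusted p = 0.370).

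**Figure D1:**
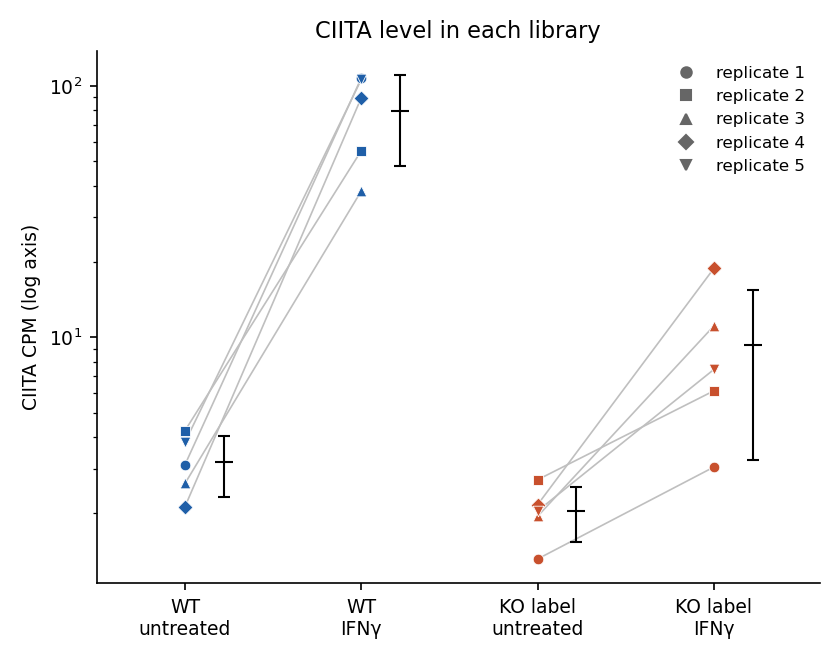
CIITA level in CPM (log axis) in each of the 20 libraries, with lines joining the untreated and treated library of a clone as labelled and bars giving the mean ± SD of 5 libraries. The 5 treated WT libraries lie between 38.2 and 107 CPM, and the 5 treated libraries labelled KO between 3.05 and 18.8 CPM.

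IFNγ raised CIITA in every clone. In the WT clones the treated library was 34.1, 12.9, 14.4, 41.6 and 27.5-fold above the untreated library of the same clone (replicates 1 to 5), and edgeR gave a log2 fold change of 4.66 (SE 0.34, adjusted p = 8.32e-06), 25.2-fold with a 95% CI of 15.0 to 42.3. In the KO-labelled clones the folds as labelled were 2.29, 2.24, 5.63, 8.59 and 3.61, so the strongest of them stayed below the weakest WT clone. With replicates 4 and 5 exchanged the largest log2 response of a KO-labelled clone was 3.18, against 3.69 in the weakest WT clone. Their log2 fold change was 2.19 (SE 0.43), 4.58-fold with a 95% CI of 2.37 to 8.85, with an edgeR adjusted p of 0.0116. It passed with the clone as a block (1.98, SE 0.32, edgeR adjusted p = 0.00599) and with replicates 4 and 5 exchanged (1.99, adjusted p = 0.00132), and without KO replicate 3 it was 2.12 (SE 0.54, adjusted p = 0.0756). The mean log2 response was 4.56 ± 0.75 (SD, n = 5) in WT and 1.96 ± 0.84 (SD, n = 5) in KO-labelled clones, a difference of 2.60 (two-sided exact permutation p = 0.00794, also with replicates 4 and 5 exchanged). In edgeR's fit of all genes this difference was 2.44 (SE 0.53, unadjusted p = 1.97e-04, adjusted p = 1.00), and 2.53 without KO replicate 3. The CIITA level of an untreated clone did not order its treated level: WT replicate 4 had the lowest untreated and the third-highest treated level.

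RFX5, the DNA-binding subunit of the RFX complex (chr1:151340640-151347252, minus strand), was the factor with the clearest change. The untreated WT libraries had 68.9, 62.9, 59.5, 64.2 and 73.5 CPM, and the treated ones 101, 97.4, 84.8, 93.0 and 105 CPM. The KO-labelled libraries had 64.4, 50.7, 62.3, 56.0 and 58.3 CPM untreated and 78.1, 66.7, 78.1, 86.4 and 77.1 CPM treated. Treated libraries lay above untreated ones without overlap in both. The rise in WT was 0.56 on the log2 scale (SE 0.10, edgeR adjusted p = 0.00394), 1.48-fold with a 95% CI of 1.27 to 1.72, and 1.73e-06 was its adjusted p with the clone as a block. Without WT replicates 1, 2 and 4 in turn the log2 fold change was 0.56, 0.55 and 0.57 but the adjusted p was 0.0235, 0.0319 and 0.0198, and the genes that passed overall went from 943 to 433, 375 and 475. In KO-labelled libraries the log2 fold change was 0.40 (SE 0.11, edgeR adjusted p = 0.0412), with 0.0141 under the clone block and 0.00177 with replicates 4 and 5 exchanged. Clone by clone, the log2 response of RFX5 was 0.51 to 0.63 in WT and 0.28 to 0.62 in KO-labelled clones, a difference in means of 0.14 (exact permutation p = 0.0476, unadjusted). With replicates 4 and 5 exchanged the range in KO-labelled clones was 0.28 to 0.57. Treated WT libraries had 96.2 ± 7.68 CPM (SD, n = 5) against 77.3 ± 7.0 CPM (SD, n = 5) in treated KO-labelled ones, ranges that overlapped, with a log2 fold change of 0.31 (SE 0.11, edgeR adjusted p = 0.996, exact permutation p = 0.0159).

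RFXAP, which joins RFX5 in the complex (chr13:36819222-36829104), was the least abundant RFX mRNA. Its means were 11.2 ± 1.69 and 13.4 ± 3.07 CPM (SD, n = 5) in untreated and treated WT libraries, and 11.1 ± 2.63 and 16.1 ± 3.49 CPM (SD, n = 5) in the KO-labelled ones. The treated level was above the untreated one in 4 of 5 WT clones and in 5 of 5 KO-labelled clones. The log2 fold change with IFNγ was 0.28 in WT (edgeR adjusted p = 0.376) and 0.54 in KO-labelled libraries (SE 0.20, adjusted p = 0.126), where it passed with the clone as a block and replicates 4 and 5 exchanged (adjusted p = 0.00239). RFXANK, the ankyrin-repeat subunit that contacts CIITA (chr19:19192258-19201866), had means between 27.2 ± 3.76 CPM (SD, n = 5) in untreated WT and 31.6 ± 3.72 CPM (SD, n = 5) in treated KO-labelled libraries. Its log2 fold change with IFNγ was 0.13 in WT and 0.22 in KO-labelled libraries (edgeR adjusted p = 0.651 and 0.361). RFXANK shares 13.3% of its exonic bases with NR2C2AP, and those bases were not counted.

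NFYC (chr1:40691704-40771603), a histone-fold subunit of NF-Y, had 76.8, 84.8, 87.7, 88.3 and 71.9 CPM in the untreated WT libraries and 112, 104, 99.7, 126 and 83.4 CPM in the treated ones. In KO-labelled clones it went from 88.1 ± 7.36 to 112.0 ± 7.31 CPM (SD, n = 5). The treated library was higher in all 10 clones. The log2 fold change was 0.37 in WT (SE 0.12, edgeR adjusted p = 0.0684) and 0.35 in KO-labelled libraries (SE 0.10, adjusted p = 0.0510). With the clone as a block it rose in WT (0.36, SE 0.06, edgeR adjusted p = 4.15e-04) and, with replicates 4 and 5 exchanged, in KO-labelled clones (adjusted p = 0.00297).

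NFYA (chr6:41072974-41102403), the subunit that reads the CCAAT sequence, moved the other way. It had 71.3, 66.9, 76.4, 128 and 117 CPM in the untreated WT libraries and 59.2, 57.6, 63.1, 101 and 95.6 CPM after IFNγ. The KO-labelled libraries had 75.3, 141, 72.6, 83.0 and 84.7 CPM untreated and 69.1, 103, 66.9, 71.8 and 67.1 CPM treated. The treated library was the lower one in all 10 clones, and WT replicates 4 and 5 and KO replicate 2 were high with and without IFNγ. The clones differed by more than the response, and the fit without a block gave a log2 fold change of -0.27 (SE 0.24, edgeR adjusted p = 0.543) in WT. With the clone as a block NFYA fell in WT by 0.26 on the log2 scale (SE 0.04, edgeR adjusted p = 4.60e-04). In KO-labelled clones the blocked value was -0.25 (edgeR adjusted p = 0.0695, and 0.0216 with replicates 4 and 5 exchanged). NFYB (chr12:104117086-104138210), the other histone-fold subunit, had means of 14.9 ± 0.906 and 14.7 ± 1.54 CPM (SD, n = 5) in WT and 15.3 ± 3.66 and 17.0 ± 4.24 CPM (SD, n = 5) in KO-labelled libraries. Its log2 fold change with IFNγ was 0.0038 in WT and 0.15 in KO-labelled libraries (edgeR adjusted p = 0.991 and 0.722).

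**Figure D2:**
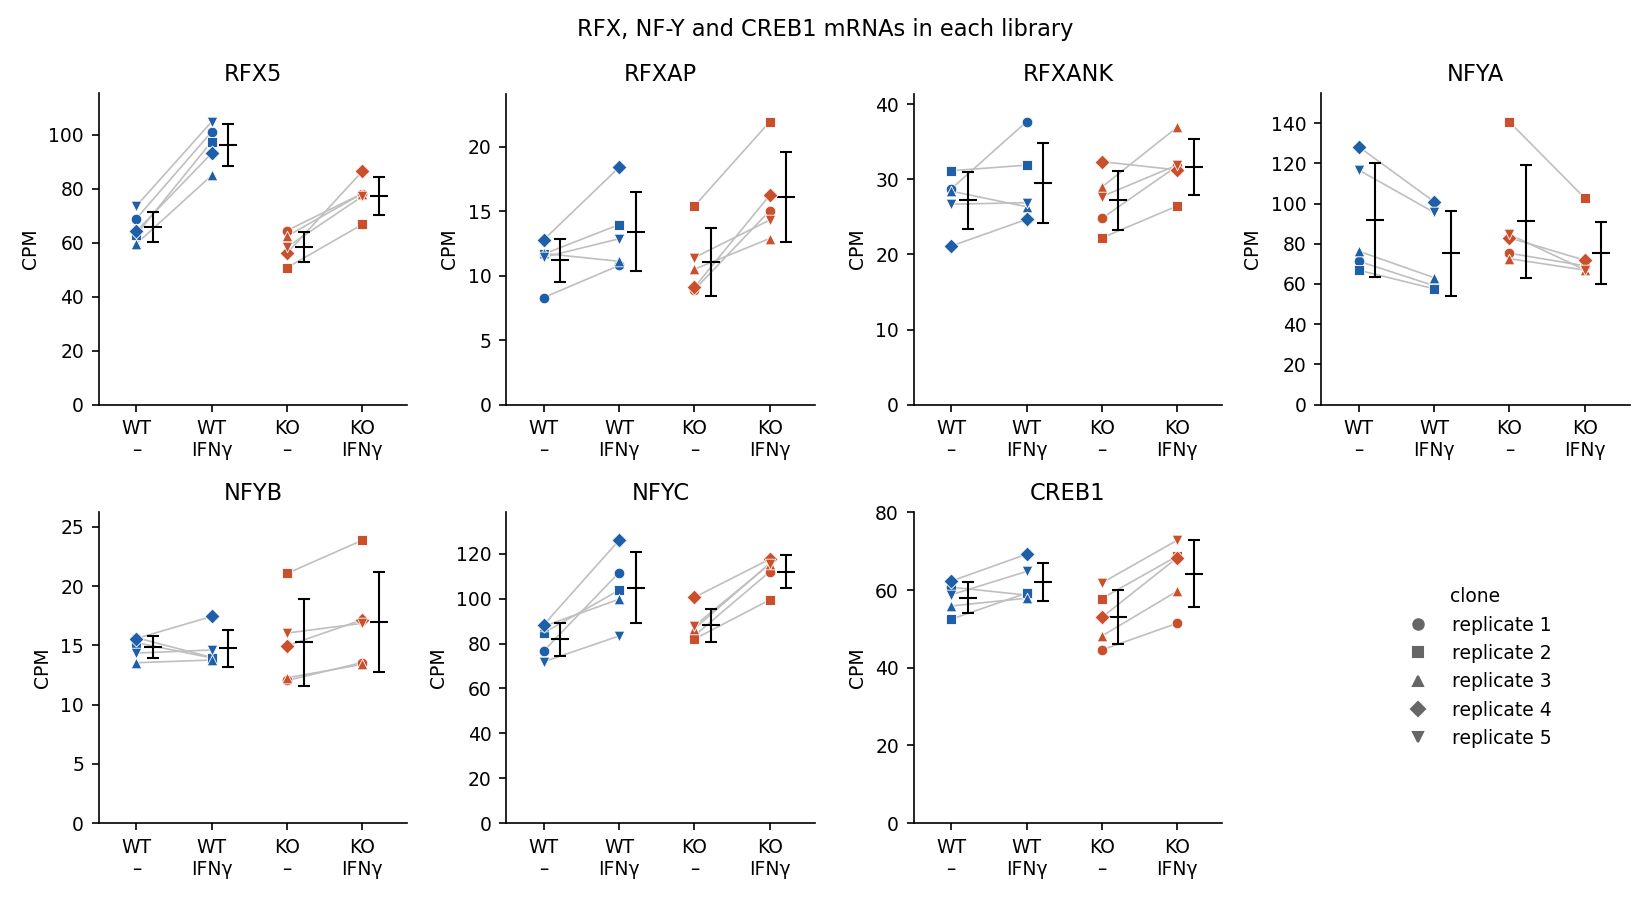
CPM of RFX5, RFXAP, RFXANK, NFYA, NFYB, NFYC and CREB1 in each library of the 4 groups, 1 panel per gene with its own axis from 0, lines joining the libraries of a clone as labelled and bars giving the mean ± SD of 5 libraries. RFX5 and NFYC lie higher and NFYA lower in the treated library of all 10 clones, and the spread of NFYA between clones exceeds its change with IFNγ.

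CREB1 (chr2:207529962-207605988), the cAMP-responsive activator that binds the X2 element, had 58.0 ± 3.91 CPM untreated and 62.0 ± 4.88 CPM treated in WT (SD, n = 5). The KO-labelled libraries had 53.1 ± 6.98 CPM untreated and 64.2 ± 8.58 CPM treated (SD, n = 5). Its log2 fold change was 0.11 in WT and 0.27 in KO-labelled libraries (edgeR adjusted p = 0.537 and 0.235), and it passed in neither with the clone as a block (adjusted p = 0.105 and 0.0386). The response per clone was -0.05 to 0.17 in WT and 0.21 to 0.37 in KO-labelled clones. These did not overlap (difference -0.18, exact permutation p = 0.00794), but they did with KO replicates 4 and 5 exchanged (p = 0.0238). The share of all genes whose responses do not overlap is not given here.

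In all, 2 of 8 members passed with IFNγ in WT (CIITA and RFX5, and 2 with DESeq2), where 4.83% of the 19522 genes tested passed, and 11.2% with DESeq2. With the clone as a block 4 of 8 passed (CIITA, RFX5 and NFYC up, NFYA down), where 34.3% of the genes did. In KO-labelled libraries 0 of 8 passed without a block, where 2.61% of 19385 genes did. There, 4 members had an unadjusted p under 0.05, against 23.5% of genes, 2 (CIITA and RFX5) an adjusted p under 0.05, against 7.88%, and 3 passed with DESeq2, against 8.71%. With the block 1 passed (CIITA), where 7.12% did, and with the block and the exchange 4 (CIITA, RFX5, RFXAP and NFYC), where 21.5% did. The median log2 fold change of the members was 0.21 in WT and 0.31 in KO-labelled libraries, and that of all genes tested was -0.03 in both. CIITA and RFX5 were the 2 members whose treated and untreated libraries did not overlap, in WT, where 11.1% of genes had no overlap, and in KO-labelled libraries, where 9.55% had none.

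**Figure D3:**
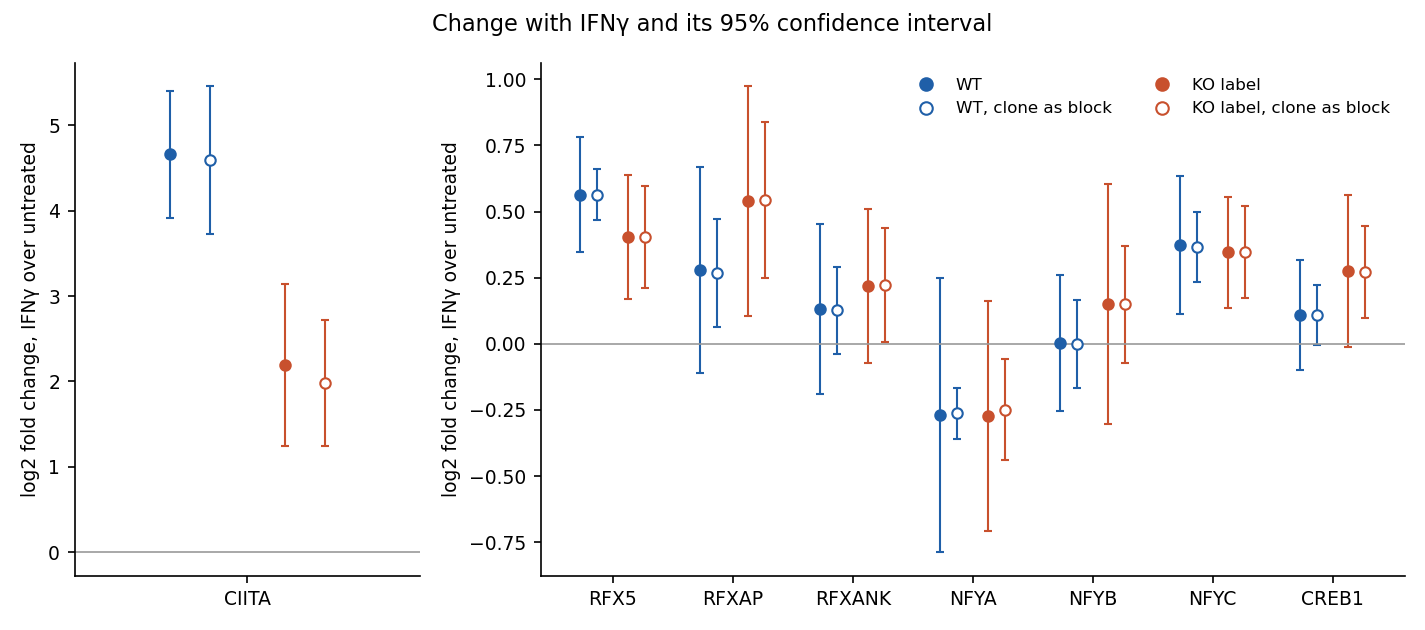
Log2 fold change of each member with IFNγ and its 95% confidence interval from edgeR, in WT (blue) and KO-labelled libraries (red), without a block (filled) and with the clone as a block (open). CIITA, on an axis of its own, stands at 4.66 in WT and 2.19 in KO-labelled libraries, and the intervals of NFYA in WT shrink away from 0 when the clone is a block.

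Between WT and KO labels, 0 of 8 members passed after IFNγ, where 0.0155% of genes passed. At an unadjusted p under 0.05 there were 2, CIITA and RFX5, against 4.35% of genes, and with DESeq2 1 passed, CIITA, against 0.0931%. CIITA was the 1 member without overlap between these groups, against 0.805% of genes. For the members other than CIITA and RFX5 the log2 fold changes ran from -0.26 for RFXAP (95% CI -0.69 to 0.17) to -0.0059 for NFYA (95% CI -0.43 to 0.42). In untreated libraries 0 of 8 passed, where 0.0154% of genes did, with 1 at an unadjusted p under 0.05 (CIITA, against 4.79% of genes) and 0 with DESeq2 (against 0.109%). There the 7 factors lay between -0.12 for NFYC and 0.16 for RFX5, and 0 members had libraries without overlap, against 1% of genes. For the difference of the IFNγ responses 0 of 8 passed, where 0% of 21052 genes did, with 1 at an unadjusted p under 0.05 (CIITA, against 0.409% of genes) and 0 with DESeq2 (against 0%). The 7 factors' differences ran from -0.28 for RFXAP to 0.14 for RFX5.

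The responses per clone put the 8 members side by side on one scale. Of 8 such comparisons of WT with KO-labelled clones, CIITA (2.60), RFX5 (0.14), NFYB (-0.16, p = 0.0238) and CREB1 (-0.18) had an unadjusted exact permutation p under 0.05, while RFXAP (-0.29, p = 0.103), RFXANK (p = 0.365), NFYA (p = 0.706) and NFYC (p = 0.984) did not. The share of all genes with such a p is not given here, so the count is not read as a result about the set. The CIITA difference was 2.60 on the log2 scale, and those of the factors were all under 0.3 in size. NFYA and NFYC had close mean responses in WT and KO-labelled clones, -0.28 and -0.25 for NFYA and 0.35 and 0.35 for NFYC.

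**Figure D4:**
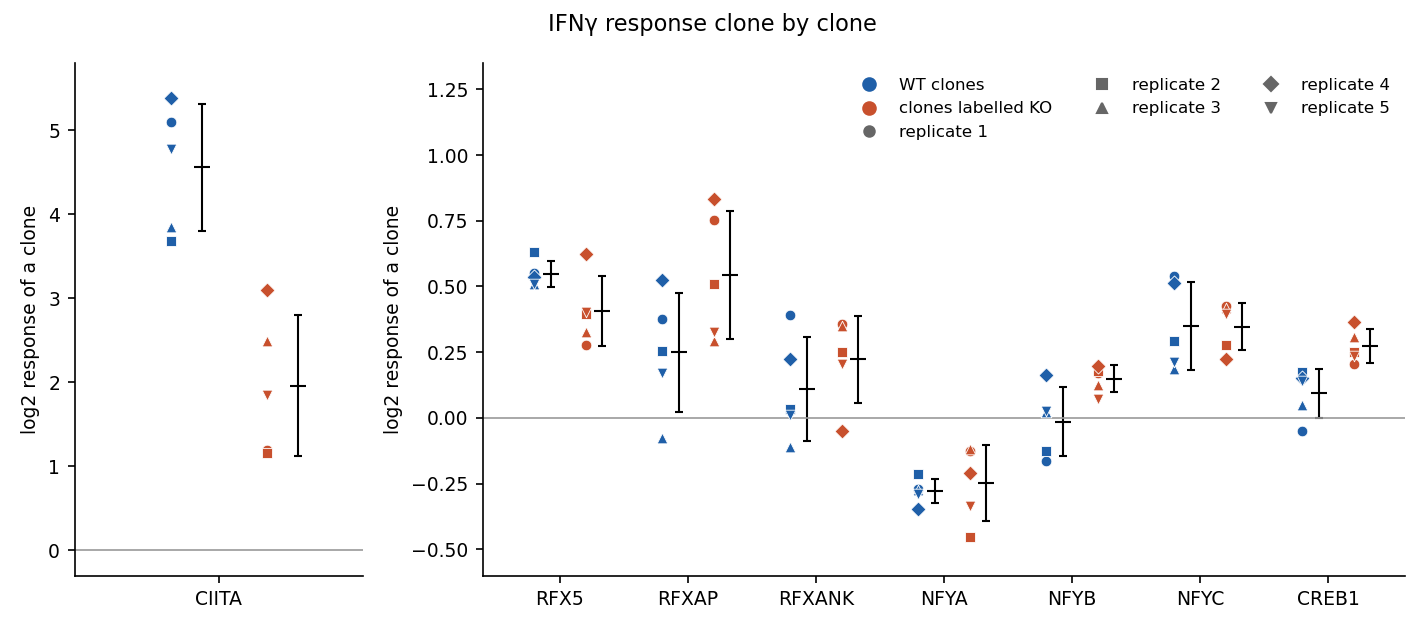
Log2 response to IFNγ of each clone (treated minus untreated library, as labelled), with the mean ± SD of 5 WT (blue) and 5 KO-labelled clones (red), CIITA on its own axis. CIITA responses are 3.69 to 5.38 in WT and 1.16 to 3.10 in KO-labelled clones, while all responses of the other 7 lie between -0.45 and 0.83.

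Clones kept their own levels of several factors with and without IFNγ. NFYB was highest in KO replicate 2 among the KO-labelled libraries, at 21.1 CPM untreated and 23.9 CPM treated, and RFXAP was highest in the same clone, at 15.4 and 21.9 CPM. RFXANK was lowest in that clone among the KO-labelled libraries, at 22.2 and 26.4 CPM. In WT, replicate 4 had the lowest RFXANK level and the highest RFXAP level both untreated and treated. The range between clones of 1 label was larger than the difference between the label means for each of these genes. A range of single clones mostly exceeds a difference of means, so this is not read as a result.

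**Figure D5:**
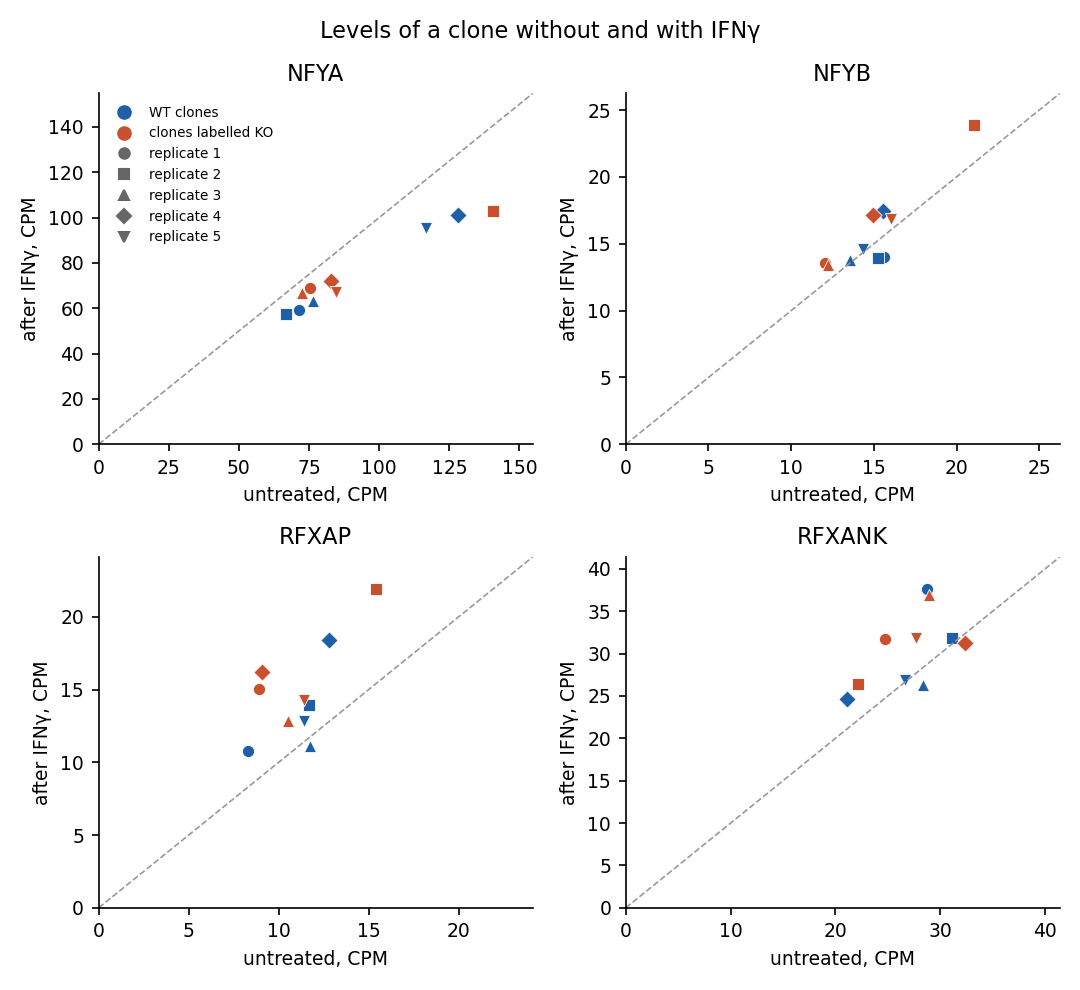
Level of NFYA, NFYB, RFXAP and RFXANK after IFNγ against the untreated level of the same clone as labelled, in CPM, for 5 WT (blue) and 5 KO-labelled clones (red), with a dashed line of equal levels. All 10 clones lie below the line for NFYA, and KO replicate 2 is the highest clone for NFYA, NFYB and RFXAP, with WT replicates 4 and 5 beside it for NFYA.

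Levels of different genes were compared per kilobase of exonic bases that no exon of another gene covers. In the untreated WT clones RFXANK (19.1 ± 2.64 CPM per kb), RFX5 (16.9 ± 1.40), NFYA (15.6 ± 4.83) and NFYC (11.8 ± 1.04) formed an upper group in which neighbours overlapped (SD, n = 5 for each). Below a gap came RFXAP (4.85 ± 0.734 CPM per kb), CREB1 (3.69 ± 0.249) and NFYB (3.35 ± 0.204), also overlapping, and below a further gap CIITA at 0.167 ± 0.0456 CPM per kb. The untreated KO-labelled libraries had the same 3 tiers, with CIITA at 0.107 ± 0.0263 CPM per kb. After IFNγ, CIITA reached 4.17 ± 1.64 CPM per kb in WT (2.01 to 5.64), among RFXAP (5.82 CPM per kb), CREB1 (3.93) and NFYB (3.32), with overlapping libraries. In the treated KO-labelled libraries it stayed below all 7 factors, at 0.489 ± 0.318 CPM per kb (0.160 to 0.988), next to NFYB at 3.82 CPM per kb. RFX5 was first in treated WT clones at 24.7 ± 1.97 CPM per kb, overlapping RFXANK at 20.7 CPM per kb. The order depended on the length used: per kilobase of the MANE Select transcript NFYC, whose transcript of 1955 bases is much shorter than its 6939 own exonic bases, was first in every group, at 41.9 to 57.3 CPM per kb.

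The balance of subunits within the complexes was described as each subunit's share of the summed level per kilobase. RFX5 made up 41.5% ± 3.49 (SD, n = 5) of the RFX mRNAs in untreated and 48.4% ± 2.60 (SD, n = 5) in treated WT clones, and the shares of single libraries did not overlap (37.6 to 44.8% and 45.5 to 52.4%). In KO-labelled libraries it made up 38.6% ± 3.27 and 40.5% ± 2.12 (SD, n = 5), with overlap. These shares were not tested, and how often shares of other genes lack overlap is not given here. The RFX5 level itself had no overlap between treated and untreated libraries in WT, against 11.1% of genes. The same held in KO-labelled libraries, against 9.55% of genes. RFXAP was the smallest part, at 11.5% to 14.4% in the 4 groups. Within NF-Y, NFYA made up 49.9% ± 7.86 untreated and 40.5% ± 7.15 treated in WT, and 48.3% ± 6.16 and 38.9% ± 4.61 in KO-labelled libraries (SD, n = 5). NFYC went from 39.0% to 48.8% in WT and from 41.0% to 49.6% in KO-labelled libraries, and NFYB stayed at 10.7% to 11.5%. The shares within NF-Y depended on the length used, a comparison added after the data had been seen. Per kilobase of the MANE Select transcript NFYC was the largest part in every group, at 68.8% in untreated and 76.5% in treated WT clones, and NFYA made up 24.0% and 17.3%. The RFX5 share stayed within 1 SD, at 42.9% and 49.8% in WT. These are shares of mRNA, not of protein.

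Of the genes that CIITA is known to activate, 11 of 12 rose with IFNγ in WT, where 4.83% of all genes passed. With DESeq2 12 passed, against 11.2% of genes. The median log2 fold change in edgeR was 6.86. CD74, the invariant chain, had 0.270 ± 0.0656 CPM untreated and 857.7 ± 413 CPM treated in WT (SD, n = 5), and HLA-DRA, the DR alpha chain, had 0.263 and 472 CPM. In KO-labelled libraries 2 of the 9 tested rose (HLA-DRA with 9.19 and CD74 with 8.65 on the log2 scale), where 2.61% of genes passed. There 4 rose with the clone as a block (7.12% of genes passed), and 6 with replicates 4 and 5 also exchanged (21.5%). With DESeq2 7 passed (8.71%). The median without a block was 3.08. Between treated WT and KO-labelled libraries 0 of 12 passed, against 0.0155% of genes. At an unadjusted p under 0.05 there were 11 (4.35% of genes), and with DESeq2 3 passed (0.0931%). The log2 fold changes were 0.54 to 4.27 with a median of 3.53. For the difference of responses 0 of 12 passed (5 at an unadjusted p under 0.05, against 0.409% of genes, and 0 with DESeq2).

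Upstream of CIITA, 7 of 15 genes known to regulate its transcription rose with IFNγ in WT, where 4.83% of genes passed. Among them were the transcription factor IRF1 (4.96), the feedback inhibitor SOCS1 (2.20) and the kinase JAK2 (1.89), all as log2 fold changes. In KO-labelled libraries 5 of 15 rose, where 2.61% of genes passed, with IRF1 at 4.72, SOCS1 at 2.10 and JAK2 at 1.71. With the clone as a block and replicates 4 and 5 exchanged 8 rose, where 21.5% of genes passed. Between treated WT and KO-labelled libraries 0 of 15 passed (0 at an unadjusted p under 0.05, 0 with DESeq2), and their log2 fold changes lay between -0.45 and 0.35 with a median of 0.04. Of the CIITA coactivators and chromatin partners 0 of 15 passed with IFNγ in WT (0 at an unadjusted p under 0.05, 0 with DESeq2). In KO-labelled libraries 0 of 15 passed (3 at an unadjusted p under 0.05, against 23.5% of genes, and 0 with DESeq2). With the clone as a block 4 of 15 rose in WT, where 34.3% of all genes passed: ANKRA2 (0.40), a paralog of RFXANK, TAF9 (0.39), CREBBP (0.25) and EP300 (0.21). In KO-labelled libraries 0 of 15 rose with the block. With replicates 4 and 5 exchanged 2 did, ANKRA2 (0.53) and TAF9 (0.41), where 21.5% of genes passed.

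Related families were set beside the members. Of all genes tested, 4.83% passed with IFNγ in WT and 2.61% in KO-labelled libraries without a block. With the clone as a block 34.3% passed in WT and 7.12% in KO-labelled libraries. Of the RFX genes outside the complex 0 of 5 passed with IFNγ in either (1 in each at an unadjusted p under 0.05, 0 with DESeq2), and RFX7 fell by 0.46 on the log2 scale in WT with the clone as a block. Of the CREB and ATF genes 3 of 8 rose in WT, the stress-response factors ATF3 (1.82) and ATF4 (1.14) and CREB5 (1.02), and 1 of 8 in KO-labelled libraries, ATF1 (0.68), a close relative of CREB1. With the clone as a block all 4 of these passed in both, with ATF3 at 1.98, CREB5 at 1.14 and ATF4 at 0.86 in KO-labelled libraries and ATF1 at 0.65 in WT. Of the NLR paralogs of CIITA, NLRC5, the activator of MHC class I genes, rose by 3.69 in WT and 3.77 in KO-labelled libraries on the log2 scale, and NLRP3 rose in WT (1.87) and, with the clone as a block, in KO-labelled libraries (1.30). Of the genes beside CIITA on chromosome 16, SOCS1 and NUBP1 (0.74 in WT, 0.73 in KO-labelled libraries) rose in both, 2 of 6 tested. With the clone as a block SNN fell in WT (-1.05) and in KO-labelled libraries (-1.32), and TXNDC11 fell in WT (-0.30). Between WT and KO labels the log2 fold changes of the 7 neighbors tested after IFNγ were 0.02 to 0.63 (median 0.31). Those of the 6 tested untreated were 0.17 to 0.29 (median 0.26), with a lowest value of -0.013 when the replicate was a block. The cause of these differences was not tested. None of these lists had a gene that passed between WT and KO labels in edgeR, treated or untreated. At an unadjusted p under 0.05, 0 genes of each did so after IFNγ, against 4.35% of genes. Untreated, 1 CREB or ATF gene and 1 neighbor of CIITA did, against 4.79% of genes, with 0 by DESeq2.

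Over the 20 libraries, the genes whose log2 CPM was most like that of CIITA were HLA-DRB1 (Pearson's r 0.94), CD74 (0.93), HLA-DQA1 (0.93), HLA-DRB6 (0.93) and HLA-DRB5 (0.92). The HLA-DRB genes are near-identical copies whose reads can be assigned to one another. These r values include the differences between the 4 groups, and the libraries of a clone are not independent. With the group means removed, differences between clones and libraries remain. The most similar genes were then FYTTD1 (0.85), ATP2B1, ITFG2 and RPRD1A (0.79 each) and PPP1R37 (0.78), with no MHC-II gene among them. In untreated WT libraries CD74 and HLA-DRA had means of only 0.270 and 0.263 CPM, so their deviations there are imprecise. The absence of MHC-II genes is therefore not read as a result. How high r gets by chance among all genes was not tested. For NFYA, looked at after its values had been seen, the genes most like it with the group means removed were PPARD (0.99), TAF11 (0.97), CDKN2B (0.97), ANKS1A (0.97) and HSPB7 (0.97). PPARD (chr6:35342558-35428178), TAF11 (chr6:34877462-34888071) and ANKS1A (chr6:34889255-35097990) lie on chromosome 6, as NFYA does. CDKN2B lies on chromosome 9 and HSPB7 on chromosome 1. The share of all genes on chromosome 6 is not given here, and the cause of the likeness was not tested.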

How the data were processed

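RNA-seq of 20 stranded mRNA libraries of U2OS clones was analysed from the authors' gene table. The authors aligned reads to GRCh38 with STAR 2.7.9a, kept unique mappers and deposited raw counts per RefSeq gene made with featureCounts 2.4.0, without normalization. The strand setting is not given in the sources used here. Genes with every exonic base shared with a gene on the opposite strand were at 0, so reads on such bases are missing from the counts. Genes with every exonic base shared on the same strand were not checked. No library was a copy of another.

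Each comparison used edgeR 4.0.16 in R 4.3.3 (TMM, filterByExpr, robust quasi-likelihood test) on its own 10 libraries, or on all 20 for the difference of responses, with Benjamini-Hochberg adjustment over all genes tested. A gene passed with an adjusted p under 0.01 and "rose" or "fell" is used for such genes only. The paper's methods name DESeq2, which was run as an alternative (1.42.0). Other alternatives were scalings, filters and thresholds, the clone as a block, and leaving out each WT or KO replicate in turn. Where treated and untreated libraries were fitted together, leaving out a replicate removed both libraries of that number as labelled. Single values were compared by two-sided exact permutation tests over 252 regroupings of 5 against 5 libraries or clones. Likeness and CPM used all 20 libraries. Scripts were tested on simulated data. The members, the other gene lists and the tests were chosen with earlier results of these data known. Named in the lists are at most 4 genes with the largest change among those that passed. Values of some genes in these lists are not reported here.

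The labels give treated and untreated libraries of 1 clone the same clone name, so the replicate number pairs them. Deviations of treated and untreated libraries from their group means, over 15115 genes, correlated at 0.79 to 0.89 in WT and at 0.78, 0.85 and 0.70 in KO replicates 1, 2 and 3, but not in KO replicates 4 and 5. WT and KO clones of 1 number were not paired (-0.26 to 0.24). Depth, 46652288 to 72952859 counts per library, limits precision mainly for untreated CIITA. Replicates are clones of 1 line. The fits of IFNγ and of the difference of responses without a block took the 2 libraries of a clone as independent. Their p-values, and those between WT and KO labels, rest on the spread between these clones. Fits with the clone as a block rest on the spread of the responses of these clones.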

Additional observations from a re-analysis of the deposited data

Results flagged for a closer look

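Of 48 groups of 5 libraries or clones tested for a single value far from the others, 3 were set apart, where chance would set apart about 2.4 (the gap to the nearest value exceeded 0.71 of the range). NFYA in KO replicate 2 stood at 141 CPM untreated against 84.7 CPM in the nearest library, and at 103 CPM treated against 71.8 CPM. NFYB in treated WT replicate 4 stood at 17.4 CPM against 14.6 CPM.

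The IFNγ responses of WT and KO-labelled clones differed by 2.60 on the log2 scale for CIITA (exact permutation p = 0.00794), by 0.14 for RFX5 (p = 0.0476), by -0.16 for NFYB (p = 0.0238) and by -0.18 for CREB1 (p = 0.00794), all unadjusted over 8 comparisons. The share of all genes with such a p is not given here. The CIITA response was larger in all 5 WT clones than in any KO-labelled clone. The edgeR test of the same difference over all genes passed for 0 members.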

How the results depend on the processing

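The clone as a replicate block raised the members passing with IFNγ in WT from 2 to 4 and in KO-labelled libraries from 0 to 1, and to 4 with KO replicates 4 and 5 exchanged. In WT it added NFYC and NFYA. In KO-labelled libraries it added CIITA at 1.98, and with the exchange CIITA at 1.99 with RFX5, RFXAP and NFYC. No other member's call changed under it. Members passing in KO-labelled libraries were 3 with DESeq2, shrunken or not, 2 with all 20 libraries in one fit, 1 without a filter and 2 at an adjusted p under 0.05. There CIITA passed at 1.47 (DESeq2, shrunken), 2.21 (DESeq2, not shrunken), 2.19 (all 20 libraries) and 2.19 (no filter). In WT 1 member passed when more than 2-fold was required, and 1 to 2 when a replicate was left out. Between treated WT and KO-labelled libraries 1 member, CIITA, passed with DESeq2 (0.99 shrunken, 3.08 not shrunken) and with all 20 libraries (3.09). The causes of these differences were not tested.

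Values near 0 turned sign. In untreated libraries RFXANK turned to 0.00052 (all 20 libraries) and 0.0015 (library totals), and NFYA to -0.0020 (DESeq2 size factors), -0.0012 (DESeq2, shrunken), -0.0021 (DESeq2, not shrunken) and -0.0029 (no filter). NFYB with IFNγ in WT turned to -0.012 (all 20 libraries) and -0.065 (library totals), and the difference of NFYA responses to 0.012 (no filter). With a replicate left out, the untreated WT against KO label values ran from -0.060 to 0.15 for RFXAP, -0.079 to 0.067 for RFXANK, -0.15 to 0.21 for NFYA and -0.12 to 0.091 for NFYB, and the treated ones from -0.13 to 0.13 for NFYA and -0.13 to 0.00076 for CREB1. NFYB with IFNγ in WT ran from -0.044 to 0.043, and the differences of responses from -0.088 to 0.022 for NFYA and -0.031 to 0.065 for NFYC.

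CIITA kept its direction in every alternative run. With a replicate left out it ran from 2.86 to 3.52 between treated WT and KO-labelled libraries, from 4.49 to 4.89 with IFNγ in WT and from 1.79 to 2.44 in KO-labelled libraries, and from 2.39 to 2.88 for the difference of clone responses.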
